A study of Mus musculus with 6 samples.

Results

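The pore-forming alpha subunits of voltage-gated sodium and calcium channels were followed between whole hippocampus and RNA recovered with HA-tagged ribosomes of microglia. The 10 genes taken were the sodium channel genes Scn1a, Scn2a, Scn3a and Scn8a and the calcium channel genes Cacna1a, Cacna1b, Cacna1c, Cacna1d, Cacna1e and Cacna1g. They were chosen by name from the 39017 gene identifiers of the count table, and each matched 1 identifier. The mice were female C57BL/6 and all carried Tmem119-Cre and RiboTag, so that cells with an active Tmem119 promoter, in the brain the microglia, put an HA epitope on the ribosomal protein Rpl22. The groups were 3 input libraries, made without antibody, and 3 IP libraries, made from RNA held by anti-HA magnetic beads. Each title code names 1 input and 1 IP library, giving 3 pairs. The age of the mice, any treatment and any deletion of Kdm6a, the gene in the series title, are not among the labels of these libraries, and whether a code is 1 animal is not said in words. P-values therefore measure the spread between coded specimens.

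Each of these genes encodes a single long polypeptide of 4 homologous domains, which together form the ion-conducting pore and its voltage sensors. Sodium channel alpha subunits start and carry the action potential of neurons, while calcium channel alpha subunits couple depolarization to transmitter release, gene expression, burst firing and other calcium-dependent events. In the hippocampus they are best known from neurons. Beta subunits and, for calcium channels, alpha2delta and gamma proteins accompany them.

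All 10 messages are long. The longest annotated transcript ran from 7926 bases for Cacna1a to 14921 bases for Cacna1e, and the longest coding sequence from 5841 bases for Scn3a to 7143 bases for Cacna1g. Coding sequence made up 45.7% of the longest transcript of Cacna1e and 89.6% of that of Cacna1a, so the members differed in length mostly outside the coding part. The genes are close relatives, and how far reads can tell them apart bears on every count below. Over whole coding sequences, identity was 81.6% to 83.6% among Scn1a, Scn2a and Scn3a and 73.8% to 74.2% between these and Scn8a. Of all windows of 50 bases in the longest transcript, 4.93% for Scn1a, 6.76% for Scn2a, 6.74% for Scn3a and 0.05% for Scn8a occurred unchanged in another member. Reads from those windows may have been split or dropped, so small differences among Scn1a, Scn2a and Scn3a are uncertain. The calcium channels were more distinct, with coding identities of 53.8% to 71.3% and no shared window of 50 bases. Their first pore loop, found by a conserved motif, is shown over 45 bases, with capitals on the codon for the glutamate that helps to select calcium. The motif fixed some of these bases in advance, so the likeness of the stretch cannot be set against that of the whole coding sequences.

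Cacna1a: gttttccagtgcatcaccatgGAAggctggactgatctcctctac
Cacna1b: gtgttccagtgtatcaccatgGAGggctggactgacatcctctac
Cacna1c: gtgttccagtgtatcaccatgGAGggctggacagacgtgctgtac
Cacna1d: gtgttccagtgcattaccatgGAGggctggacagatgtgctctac
Cacna1e: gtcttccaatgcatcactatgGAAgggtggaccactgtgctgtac
Cacna1g: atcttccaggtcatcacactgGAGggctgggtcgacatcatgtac

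These stretches differed at 4 to 16 of 45 bases, and Cacna1g, the T-type gene, differed from the other members at 12 to 16. Overlap with other genes was small. Exons of Cacna1d shared 589 bases, 4.67% of their total, with Chdh on the opposite strand, and those of Cacna1a shared 435 bases, 3.81%, with the antisense gene Gm16183. The kit marks strand, but the strand setting of the counting is not known.

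Library totals were 18448897 to 20422140 counts in input and 10757351 to 18558497 in IP, and a single member had 48 to 4260 counts in a library. All 14 microglia markers on the list used here were higher in IP, with a summed level of 581 to 714 CPM (counts over library size, with sizes scaled by TMM factors) in input and 39449 to 47532 in IP. The input libraries are also labelled as microglia, yet the 15 pan-neuronal markers summed to 10116 to 10940 CPM there and to 1424 to 1453 CPM in IP. Neuronal RNA was thus reduced but not absent in IP. Of the other marker lists, 8 of 12 excitatory and 11 of 12 inhibitory neuron markers, 11 of 12 astrocyte, 10 of 10 oligodendrocyte and 6 of 9 oligodendrocyte precursor markers were called lower. In contrast, 6 of 10 endothelial markers were called higher, or 3 without pair 1. Their sums were 17.5 to 58.4 CPM in input and 165 to 298 CPM in IP. Of 10 mural markers, 9 were not called and 1 was called higher, or 0 to 3 with a library or pair left out. Over all tested genes, 23.8% were called higher and 23.9% lower. The part of endothelial and mural cells in the channel levels was not tested. Mice without the tag were not analysed here. RNA on microglial ribosomes cannot be told apart from RNA carried along on the beads, and in bulk RNA fewer cells and less RNA per cell cannot be told apart either.

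Sodium and calcium channel alpha subunits did not move as 1 group between input and IP. Scn1a and Scn2a fell in IP, Cacna1d rose, and the other 7 members were not called. This is 1 of 10 higher and 2 of 10 lower, in a comparison where 23.8% of the 16196 tested genes were called higher and 23.9% lower (edgeR quasi-likelihood test, Benjamini-Hochberg adjusted p below 0.05). All 10 members passed the filter on low counts. The median log2 fold, IP over input, was 0.25 over the members, -0.86 over the 4 sodium channel genes and 0.35 over the 6 calcium channel genes, against -0.10 over all tested genes.

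Scn1a, a channel on which fast-spiking inhibitory neurons depend and whose loss causes a severe childhood epilepsy in humans (ENSMUSG00000064329, chromosome 2, 66270778 to 66440840, minus strand, GRCm38), had input levels of 21.2, 17.6 and 29.5 CPM and IP levels of 7.07, 6.14 and 7.94 CPM, given here and below in the order of pairs 1, 2 and 3. Every IP library was below every input library. The log2 fold came to -1.69 (SE 0.34, edgeR adjusted p = 0.0025), and the pairs gave -1.52, -1.45 and -1.83 on the log2 scale of CPM + 0.5. It was called lower in all 22 alternative analyses. Scn2a, which carries action potentials in excitatory neurons early in development and stays on dendrites and axons later (ENSMUSG00000075318, chromosome 2, 65620771 to 65767447, plus strand), had 63.0, 50.8 and 92.3 CPM in input against 27.1, 27.0 and 45.4 CPM in IP. The groups again did not overlap, although the highest IP library came near the lowest input library. Its log2 fold was -1.05 (SE 0.29, edgeR adjusted p = 0.015). That call was lost without input library 3 (adjusted p = 0.065), IP library 1 (0.057), IP library 2 (0.055), pair 1 (0.11) or pair 2 (0.058), with the direction kept each time.

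Scn3a, best known from the embryonic and early postnatal brain (ENSMUSG00000057182, chromosome 2, 65457118 to 65567627, minus strand), was the least abundant member. Its levels were 8.94, 8.43 and 9.70 CPM in input against 2.59, 7.42 and 7.0 CPM in IP, where library 1 held 48 counts. IP library 1 stood well below the other 2, and the groups did not overlap. The gene was not called (log2 fold -0.67, SE 0.54, edgeR adjusted p = 0.34). Scn8a, the main sodium channel of mature axon initial segments and nodes (ENSMUSG00000023033, chromosome 15, 100869858 to 101045938, plus strand), was the most abundant member in input. It was at 173, 101 and 219 CPM in input and at 157, 109 and 180 CPM in IP. The groups overlapped over most of their range, and the log2 fold was -0.14 (SE 0.28, edgeR adjusted p = 0.72). The sign of that fold turned without input library 3 (0.10) or IP library 2 (0.02).

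**Figure D1:**
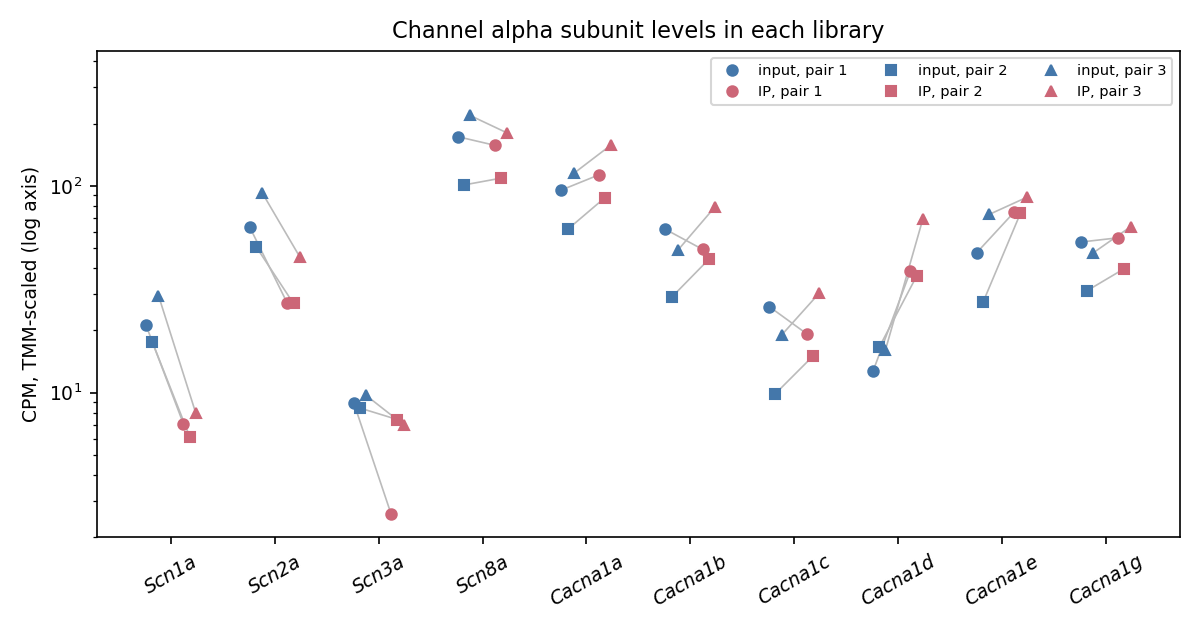
Level of each channel alpha subunit gene in every library, in CPM scaled by TMM factors on a log axis, with input in blue, IP in red and a grey line joining the 2 libraries of a title code. All 3 lines fall for Scn1a, Scn2a and Scn3a and all 3 rise for Cacna1a, Cacna1d, Cacna1e and Cacna1g. Of these, only Scn1a, Scn2a and Cacna1d were called. Input and IP overlap for Scn8a, Cacna1a, Cacna1b, Cacna1c and Cacna1g.

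Of the L-type calcium channel genes among the members, Cacna1d was called and Cacna1c was not, and their folds were not tested against each other. Cacna1d, whose channel opens at relatively negative voltages and serves pacemaking neurons, cochlear hair cells and the sinoatrial node (ENSMUSG00000015968, chromosome 14, 30039939 to 30491455, minus strand), was at 12.7, 16.6 and 16.1 CPM in input and at 38.6, 36.6 and 69.1 CPM in IP. All IP libraries were above all input libraries, with IP library 3 highest. The log2 fold came to 1.67 (SE 0.30, edgeR adjusted p = 0.0013), pairs 1, 2 and 3 gave 1.57, 1.12 and 2.07, and it was called higher in all 22 alternative analyses. Chdh, which overlaps it on the other strand, had 57 to 153 counts in a library, against 273 to 740 for Cacna1d. Cacna1c, the other L-type gene of brain and the main one of heart (ENSMUSG00000051331, chromosome 6, 118587240 to 119196418, minus strand), was at 26.1, 9.89 and 19.0 CPM in input and at 19.3, 15 and 30.2 CPM in IP. The groups overlapped, pair 1 went down and pairs 2 and 3 went up. Its log2 fold was 0.23 (SE 0.41, edgeR adjusted p = 0.69), and the sign turned without input library 2 (-0.09), IP library 3 (-0.10) or pair 3 (-0.10).

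None of the presynaptic and R-type genes was called. Cacna1a encodes the P/Q-type channel and Cacna1b the N-type channel, which trigger transmitter release, and Cacna1e encodes the R-type channel. Cacna1a (ENSMUSG00000034656, chromosome 8, 84388440 to 84640246, plus strand) was at 95.5, 61.6 and 115 CPM in input and at 113, 87.8 and 158 CPM in IP. It was higher in IP in 3 of 3 pairs, but the groups overlapped and it was not called (log2 fold 0.40, SE 0.27, edgeR adjusted p = 0.27). Cacna1b (ENSMUSG00000004113, chromosome 2, 24603887 to 24763152, minus strand) was at 61.7, 28.9 and 48.8 CPM in input and at 49.3, 44.2 and 79.3 CPM in IP, and its log2 fold stood at 0.31 (SE 0.32, edgeR adjusted p = 0.47). It was lower in IP in pair 1 and higher in the other pairs. Cacna1e (ENSMUSG00000004110, chromosome 1, 154390731 to 154884501, minus strand) was at 47.6, 27.4 and 72.8 CPM in input and at 74.7, 73.7 and 88.0 CPM in IP. The highest input library lay just under the lowest IP library. It was not called (log2 fold 0.68, SE 0.31, edgeR adjusted p = 0.10), but it was called higher with the title code as a block (log2 fold 0.78, SE 0.24, adjusted p = 0.023), without input library 3 (1.05, adjusted p = 0.016), without pair 3 (0.96, adjusted p = 0.038) and with limma-voom (0.77, adjusted p = 0.026).

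Cacna1g, a T-type gene whose channel supports rebound bursts, above all in the thalamus (ENSMUSG00000020866, chromosome 11, 94408391 to 94474198, minus strand), was at 53.5, 31.1 and 47.4 CPM in input and at 56.1, 39.8 and 63.4 CPM in IP. It was higher in IP in 3 of 3 pairs by small amounts, and the groups overlapped (log2 fold 0.27, SE 0.26, edgeR adjusted p = 0.43). The other T-type genes were similar in that neither was called: Cacna1h had a log2 fold of 0.28 (SE 0.26, edgeR adjusted p = 0.41) and Cacna1i of -0.56 (SE 0.29, edgeR adjusted p = 0.14). Cacna1i was called lower without input library 2 (-0.81, adjusted p = 0.045) or IP library 3 (-0.82, adjusted p = 0.04), and with the correction for transcript length described below (-1.32, adjusted p = 0.0047), also with the block (-1.32, adjusted p = 0.00065) or by union of exons (-1.05, adjusted p = 0.015).

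The libraries of pair 2 were low for nearly all members in both groups. Within input, 9 of 10 members were lowest in library 2, and within IP, 9 of 10 were lowest in library 2 and 9 of 10 highest in library 3. Over all tested genes, 38.0% were lowest in input library 2 and 26.2% in IP library 2. Among the 816 tested genes whose longest transcript was within the range of the members, 7926 to 14921 bases, these shares were 67.5% and 41.2%. Highest in IP library 3 were 30.2% of all tested genes and 47.2% of those in the length range. The summed level of the 10 oligodendrocyte markers was highest in the same pair, with input sums of 5377, 7585 and 4543 CPM and IP sums of 945, 1447 and 860 CPM, and none of them was at 0. Not every marker followed the sum: Opalin was lowest in IP library 2, at 1.19 CPM against 1.94 and 2.05 CPM. Their part in the low channel levels was not tested.

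Levels per length gave an order that was much the same in both groups at its ends. Expressed as CPM per kilobase of the longest transcript, Scn8a (14.3 ± 5.20, SD, n = 3) and Cacna1a (11.4 ± 3.40) led in input, and Scn3a (0.944 ± 0.0664) was last. In IP, Cacna1a (15.1 ± 4.46) and Scn8a (13.0 ± 3.18) led, and Scn3a (0.593 ± 0.280) was again last. In input, Scn2a (7.69 ± 2.39), Cacna1g (5.25 ± 1.38), Cacna1b (4.77 ± 1.70), Cacna1e (3.30 ± 1.52), Scn1a (2.72 ± 0.729), Cacna1d (1.56 ± 0.216) and Cacna1c (1.39 ± 0.618) stood between them. Only Scn1a and Cacna1d were neighbours in that order without overlap of their libraries. In IP the order between was Cacna1g (6.34 ± 1.44), Cacna1b (5.91 ± 1.95), Cacna1e (5.28 ± 0.535), Cacna1d (4.98 ± 1.89), Scn2a (3.71 ± 1.18), Cacna1c (1.63 ± 0.593) and Scn1a (0.841 ± 0.107). There, Scn8a and Cacna1g, Scn2a and Cacna1c, and Cacna1c and Scn1a did not overlap, and the other neighbours did. With the union of all exons as the length, Scn8a and Cacna1a still led and Scn3a was still last in both groups, and Scn2a and Cacna1c were the only neighbours in IP that did not overlap.

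The make-up of each channel class also shifted. Calcium channel counts were 1.12, 0.988 and 0.911 times the sodium channel counts in input libraries 1, 2 and 3 and 1.81, 1.98 and 2.02 times in IP. Among the 4 sodium channel genes, Scn8a took 65.0%, 56.7% and 62.4% of the counts in input and 81.0%, 72.9% and 74.9% in IP. Scn1a took 8.78 ± 1.03% in input and 3.68 ± 0.404% in IP, and Scn2a 26.2 ± 2.47% and 17.0 ± 2.59% (SD, n = 3). Among the 6 calcium channel genes, Cacna1d took 4.28%, 9.44% and 5.03% in input and 11%, 12.3% and 14.2% in IP. Input and IP did not overlap for any of these 5 quantities, but an exact two-sided permutation test of 3 against 3 libraries cannot give a p below 0.10. The shares of the other 5 calcium channel genes and of Scn3a overlapped.

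**Figure D2:**
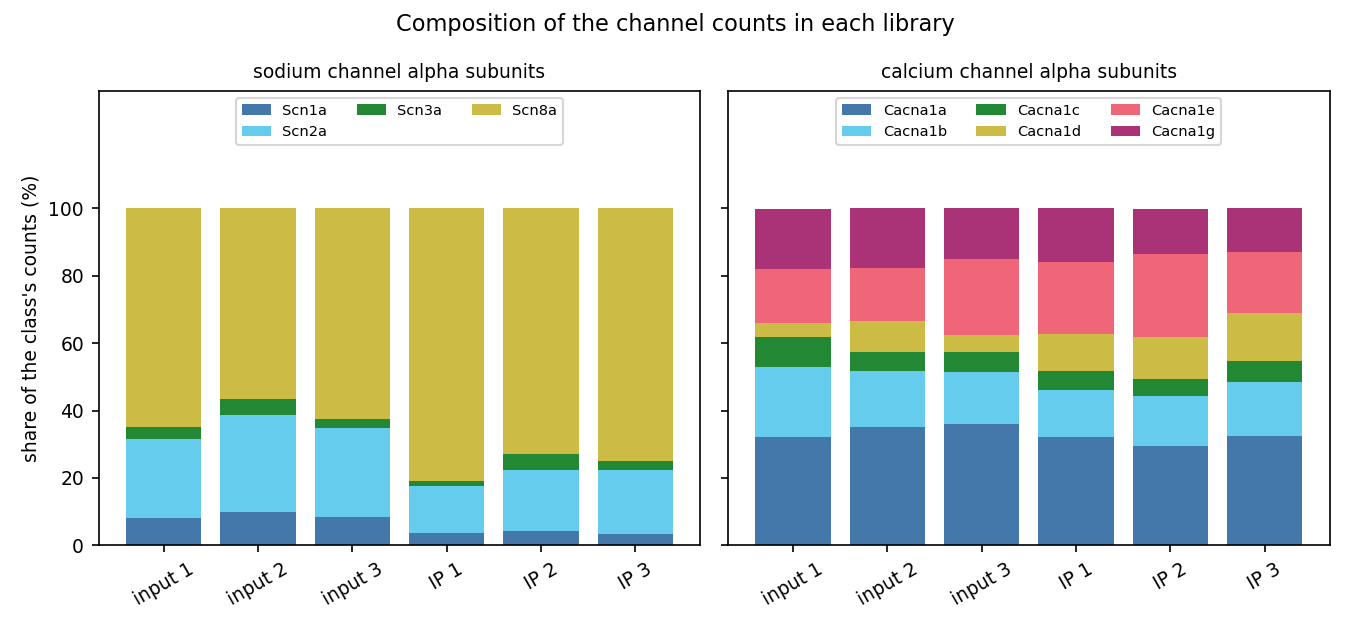
Share of each gene in the summed counts of the 4 sodium channel (left) and 6 calcium channel (right) alpha subunit genes, in percent, for each library. Scn8a takes a larger part of the sodium channel bar in all 3 IP libraries, and Cacna1d a larger part of the calcium channel bar.

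Transcript length ran alongside these folds. With the tested genes in 5 bins of equal size by their longest transcript, the share called higher in IP was 11.6% in the shortest bin (up to 1647 bases) and rose through 19.4%, 22.8% and 28.3% to 37.6% in the longest (from 5077 bases), and the median log2 fold went from -0.53 to 0.45. In the 816 genes of the members' range, 41.5% were called higher and 12.9% lower, with a median log2 fold of 0.60. The members had 1 of 10 higher and 2 of 10 lower. The log2 fold of Cacna1d was exceeded by 199 of the 816 genes and that of Scn1a by 744. Over the 10 members, which span a narrow range of lengths and share their libraries, Spearman's rho of the fold was 0.24 with the longest transcript, 0.09 with the union of exons and 0.60 with coding length. With 10 related genes these are descriptions only.

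A correction that removed the trend of fold on transcript length over all genes lowered every member's fold and turned the sign of 5 that had not been called. With it, 22.0% of all genes were called higher and 23.8% lower. Scn1a (log2 fold -2.35, SE 0.34, edgeR adjusted p = 0.00039) and Scn2a (-1.75, SE 0.30, adjusted p = 0.0010) remained lower, and Cacna1d remained higher (0.92, SE 0.29, adjusted p = 0.029). Scn8a was then called lower (-1.0, SE 0.29, adjusted p = 0.018), or -0.96 with the title code as a block (adjusted p = 0.00047). Cacna1a (-0.23), Cacna1b (-0.45), Cacna1c (-0.71), Cacna1e (-0.34) and Cacna1g (-0.39) went below 0 without being called, and Scn3a was at -1.42. The median log2 fold of the members was -0.58, against -0.10 for all genes.

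**Figure D3:**
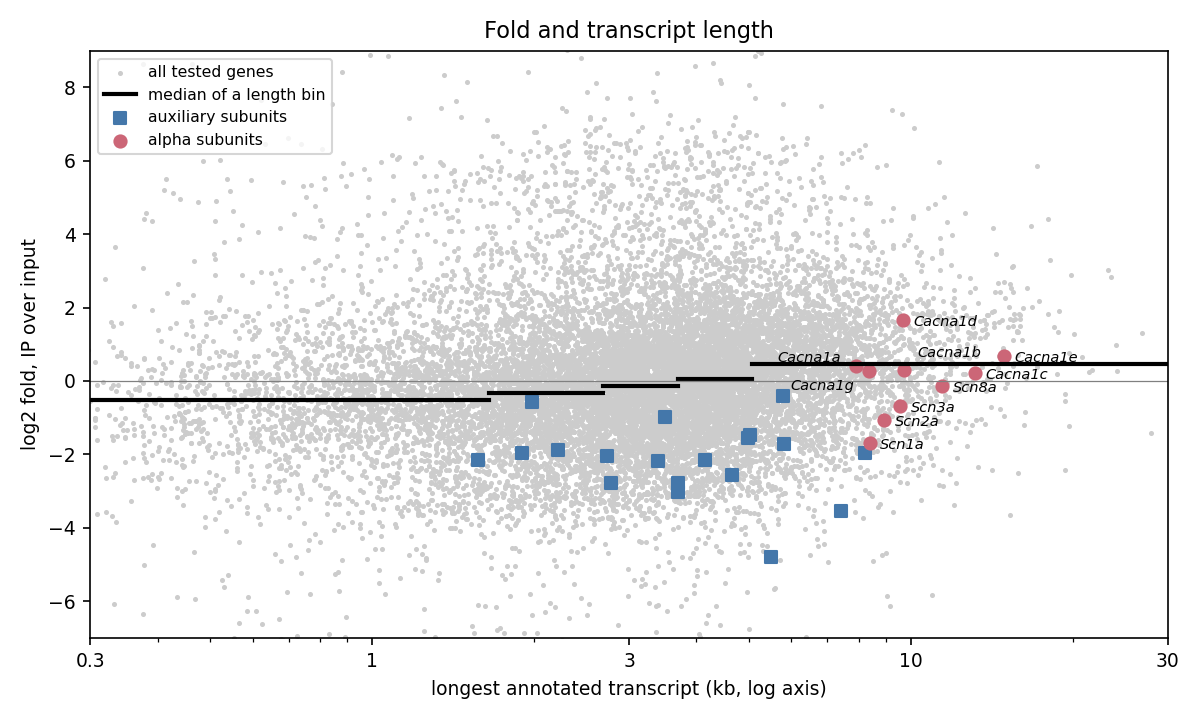
Log2 fold of IP over input against the length of the longest annotated transcript in kilobases (log axis) for all tested genes (grey), with the median of each of 5 length bins (black lines), the 10 alpha subunits (red) and the 19 tested auxiliary subunits (blue). Genes outside the axes are not drawn. The alpha subunits lie at the long end, from -1.69 to 1.67. Only Cacna1d and Cacna1e are above the median of the longest bin, 0.45, and the median of the alpha subunits is 0.25. The auxiliary subunits lie below 0.

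The question of whether the channel messages followed other neuronal RNA was put by scaling each library to its summed pan-neuronal marker counts, which held 1.05% to 1.11% of input counts and 0.131% to 0.145% of IP counts. This scaling moved the median log2 fold of all genes by 2.86, to 2.77, and 74.1% of all tested genes were then called higher and 1.35% lower. On that scale all 10 members were called higher, with a median of 3.12. Scn1a was the nearest to the neuronal markers (log2 fold 1.18, SE 0.41, edgeR adjusted p = 0.022), followed by Scn2a (1.82, SE 0.29, adjusted p = 0.00018) and Scn3a (2.19, SE 0.60, adjusted p = 0.0064). Scn8a was at 2.74 (SE 0.28), and Cacna1d was farthest at 4.53 (SE 0.31). The other calcium channels lay from 3.10 for Cacna1c to 3.56 for Cacna1e. The order of the members was carried over from the library scaling, because only the library factors changed. A call on that scale was shared with most tested genes.

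The reference mattered for 3 sodium channels. With the 12 excitatory neuron markers in place of the pan-neuronal ones, Scn1a was at -0.25 (adjusted p = 0.68), Scn2a at 0.36 (adjusted p = 0.39) and Scn3a at 0.76 (adjusted p = 0.36), while the other 7 members stayed called higher. Of the 16196 tested genes, 7614 were called higher and 815 lower with this reference, so such a call was shared with many genes. That reference is a sum of counts, at 12022, 9024 and 13251 CPM in input and 4047, 3315 and 5697 CPM in IP. Its markers did not move alike. Under library scaling their median log2 fold was -2.31, while Camk2a was at -0.07 (edgeR adjusted p = 0.86). How far single markers such as Camk2a set the sum was not tested. With the pan-neuronal reference and the length correction, Scn1a (0.39, adjusted p = 0.39) and Scn3a (1.30, adjusted p = 0.063) were not called. Scn1a was also not called without input library 1 (adjusted p = 0.10), 2 (0.095) or 3 (0.051) or without pair 1 (0.12) or 2 (0.063), and Scn3a not without pair 2 (0.077). Neuronal markers of the length of the members were few. Prox1, a transcription factor of dentate granule cells with a transcript of 7913 bases, had a log2 fold of 0.15 (SE 0.23, edgeR adjusted p = 0.63) under the usual library scaling. Grin2a, an NMDA receptor subunit with 14634 bases, had one of -0.75 (SE 1.14, adjusted p = 0.63), and the short message of Npy, a neuropeptide, with 566 bases, one of -4.38 (SE 0.53, adjusted p = 0.00011), or -5.08 without IP library 2 and -5.12 without pair 2.

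**Figure D4:**
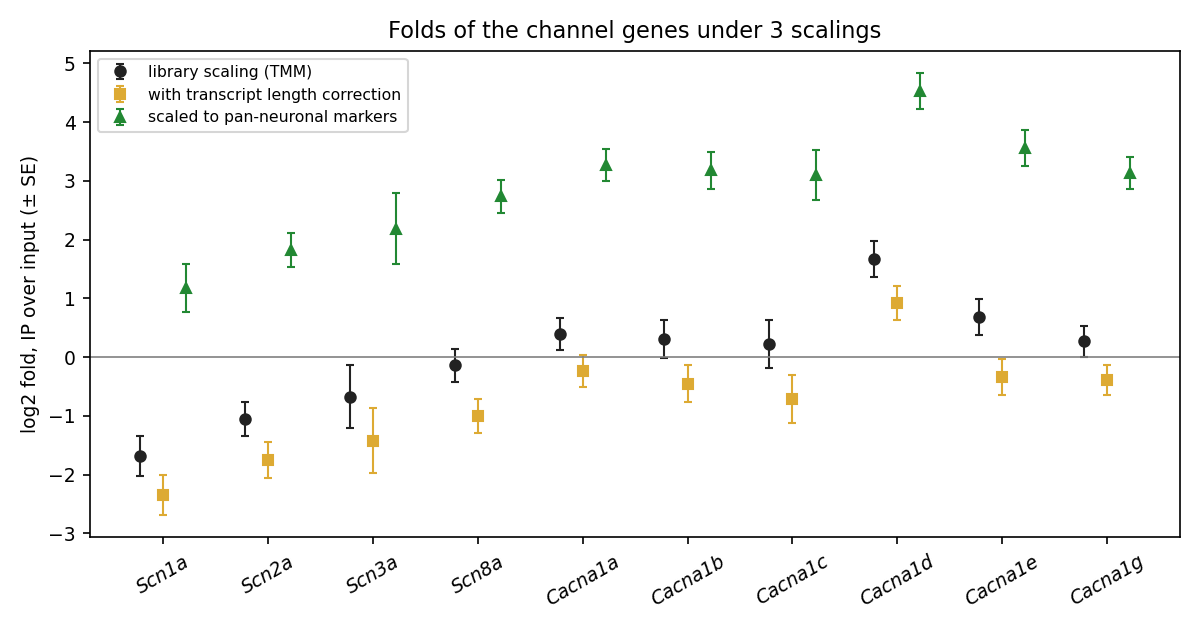
Log2 fold of IP over input with its SE for each channel gene under TMM library scaling (black), with a correction for transcript length (yellow) and with libraries scaled to pan-neuronal markers (green). Scaling to pan-neuronal markers changes only the library factors, so it moves all genes by nearly the same amount and keeps their order by construction. With the length correction, Scn1a is still lowest and Cacna1d highest.

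Most auxiliary subunits fell in IP. Of 19 tested, 15 fell and none was called higher, where 23.9% of all tested genes were called lower and 23.8% higher. Neuronal markers fell likewise: 15 of 15 pan-neuronal, 8 of 12 excitatory and 11 of 12 inhibitory ones were called lower. The auxiliary subunits had a median log2 fold of -2.04 under library scaling and of -2.14 with the length correction, which called 16 of them lower. Their transcripts ran from 1573 to 8225 bases, with a median of 3705, so the 2 sets also differed in length. Of the sodium channel beta subunits, which speed gating and bind cell adhesion partners, 3 of 4 fell. Scn2b went from 324 ± 40.6 to 55.3 ± 12.1 CPM (log2 fold -2.55, SE 0.20, edgeR adjusted p = 7e-06). Scn4b missed the threshold (log2 fold -1.56, adjusted p = 0.073) and was called lower with the block (-1.72, adjusted p = 0.012), DESeq2 (-1.56, adjusted p = 0.039), limma-voom (-2.06, adjusted p = 0.023) and the length correction (-1.86, adjusted p = 0.041, or -2.02 and 0.0057 with the block). It was at -0.91 without input library 2.

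All 4 cytoplasmic calcium channel beta subunits, which bring alpha subunits to the membrane, fell. Cacnb3 went from 331 ± 41.5 to 80.3 ± 1.61 CPM (log2 fold -2.04, SE 0.15, edgeR adjusted p = 4.9e-06), Cacnb1 had a log2 fold of -2.19 and Cacnb2 of -1.48. Cacnb4, whose longest transcript of 8225 bases lies within the range of the alpha subunits, had one of -1.97 (SE 0.41, adjusted p = 0.0032). Of the alpha2delta subunits, 3 of 4 fell. Cacna2d1, the target of gabapentin, went from 51.1 ± 19.3 to 4.36 ± 1.70 CPM (log2 fold -3.53, SE 0.40, edgeR adjusted p = 7.5e-05) with a transcript of 7436 bases, close to the 7926 bases of Cacna1a. Cacna2d4 was under 1 CPM on average in both groups and was not called. Of 7 tested gamma subunits, several of which are auxiliary proteins of AMPA receptors rather than of calcium channels, 5 fell. Cacng2, stargazin, went from 64.4 ± 6.54 to 2.2 ± 2.0 CPM (log2 fold -4.81, SE 0.62, edgeR adjusted p = 0.00017), or to a log2 fold of -5.81 without IP library 1. Cacng7 fell with a log2 fold of -1.87, and Cacng6 was not called (-0.58, adjusted p = 0.76).

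Most other alpha subunits were scarce. Scn4a and Scn10a, of skeletal muscle and sensory neurons, averaged 0.109 and 0.121 CPM in input and Scn9a 0.867 CPM, and none of these 3 had a count in IP. Scn11a, another sensory neuron gene, had no count in any library. These 4, Scn7a and Cacna1f did not pass the filter. Nalcn, the sodium leak channel that sets resting excitability, fell from 38.9 ± 6.36 to 10.7 ± 3.83 CPM (log2 fold -1.86, SE 0.33, edgeR adjusted p = 0.0012), with a transcript of 7122 bases. Cacna1s, the skeletal muscle L-type gene, was called higher at 6.19 ± 2.04 CPM from 0.518 ± 0.549 CPM (log2 fold 3.57, SE 1.30, edgeR adjusted p = 0.047). That call stood on few input counts and was lost with the block (4.14, adjusted p = 0.062), upper quartile factors (3.43, adjusted p = 0.056), library totals only (3.46, adjusted p = 0.053), the length correction (3.09, adjusted p = 0.076), and without input library 1 (2.98) or 3 (3.47), IP library 1 (3.42) or 2 (3.41), or any pair (2.83, 4.56 and 3.72), while without input library 2 the log2 fold was 4.69.

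Genes listed for the axon initial segment and related scaffolds, whose proteins hold or modulate sodium channels, went in both directions. Of 10 tested, 4 rose and 5 fell, where 23.8% of all tested genes were called higher and 23.9% lower. The 4 that rose had transcripts of 8018 to 14305 bases. Nfasc, with 9739 bases, was not called (log2 fold -0.03, edgeR adjusted p = 0.90). Cntn1, with 5671 bases, fell (-3.15, adjusted p = 9.6e-06), as did Trim46, with 3252 bases (-0.72, adjusted p = 0.018). In the length range of the members, 41.5% of genes were called higher and 12.9% lower. The scaffold genes of the ankyrin and spectrin families rose: Ank3, ankyrin G, had a log2 fold of 1.44 with a transcript of 9963 bases, Ank2 of 1.46, Sptbn4 of 0.85, and Sptan1, alpha spectrin, which many cell types express, went from 344 ± 91.7 to 1501 ± 427 CPM (log2 fold 2.12, SE 0.27, edgeR adjusted p = 0.00014). The small intracellular fibroblast growth factor homologues, which bind the sodium channel tail, fell, with log2 folds of -3.84 for Fgf12, -2.20 for Fgf13 and -2.93 for Fgf14 and transcripts of 2499 to 4137 bases. With the length correction only Sptan1 of the list was still called higher (1.49), and 6 were lower, among them Nfasc (-0.79, edgeR adjusted p = 0.0044). Without pair 1, 2 of the 10 were called higher, and without pair 2, 3 were called lower.

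Calcium release channels were mostly higher in IP, while genes of store-operated calcium entry were mixed. Of 6 release channels of the endoplasmic reticulum, all with transcripts of at least 8990 bases, 5 rose and none fell, where 41.5% of genes in the length range of the members were called higher. Ryr1, Ryr2 and Ryr3, with 15358, 16814 and 15468 bases, were longer than that range. In the longest of the 5 length bins, from 5077 bases, 37.6% were called higher. With the length correction 4 were called higher, the median log2 fold went from 2.27 to 1.21, and Ryr3 was no longer called (0.46, edgeR adjusted p = 0.25). Itpr3 rose from 0.573 ± 0.571 to 34.1 ± 9.72 CPM (log2 fold 5.88, SE 0.65, edgeR adjusted p = 6.3e-05), with 7.05 when input library 3 was left out, 7.15 when pair 3 was and 5.22 when pair 2 was, and Itpr2 had a log2 fold of 4.34. Itpr1, the form abundant in neurons, was at 140 ± 68.4 and 120 ± 37.5 CPM and was not called (log2 fold -0.22, SE 0.37). It was called lower with the length correction and the block (-0.90, edgeR adjusted p = 0.0017) and with the correction by union of exons (-1.03, adjusted p = 0.047). Of 5 genes of store-operated entry, the main calcium entry route of many non-excitable cells, Orai1 rose from 21.3 ± 4.50 to 136 ± 9.92 CPM (log2 fold 2.67, SE 0.20, edgeR adjusted p = 5.6e-06) with a transcript of only 1875 bases. Orai3 rose too (0.57, adjusted p = 0.018), and 1 gene was called higher without input library 1 or 2 or without pair 1 or 2. Stim2 fell from 116 ± 17.8 to 43.5 ± 6.34 CPM (log2 fold -1.41, SE 0.19, adjusted p = 0.00025). Orai2 (-0.14, edgeR adjusted p = 0.66) and Stim1 (-0.00, adjusted p = 0.99) were not called. Over all tested genes, 23.8% were called higher and 23.9% lower.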

How the data were processed

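Per the labels' protocols, RNA was isolated with the Direct-zol kit and stranded libraries were built from enriched mRNA. The submitters' processing notes name bcl2fastq 2.17, FastQC, Trimmomatic and the mm10 build. The aligner, the counter, the strand setting and the annotation were not given in the sources used here. Values are raw whole-number counts for each gene, as the authors deposited them. Names, lengths, coordinates and sequences are from GENCODE M21 (GRCm38, the same assembly as mm10), which named 37607 of 39017 identifiers. Length is that of the longest annotated transcript, known for 98.5% of tested genes, and need not be that of the expressed one.

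Counts were tested with edgeR 4.0.16 in R 4.3.3 (quasi-likelihood F test, TMM factors, filterByExpr with a minimum count of 10, robust dispersion, prior count 0.125, no block) over all 16196 genes that passed. Values in CPM are mean ± SD over 3 libraries. The fit was tested on simulated data. Alternatives were other scaling, filters, DESeq2 1.42.0, limma-voom (limma 3.58.1), the title code as a block, omission of each library and pair, thinning, prior counts and a loess correction for length, which was centred so that the mean of all genes stayed in place. The length correction within the fit scaled to neuronal markers was added after the data were seen. Pairing rests on the shared title code. On 11180 genes, deviations from group means correlated at 0.05, 0.23 and 0.16 within codes and at -0.18 to 0.02 between codes. Coding sequences were aligned with Biopython 1.88. Libraries of a group differed beyond sampling noise (chi-square per degree of freedom 24.1 to 48.0).

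The 10 genes and the 18 other gene lists were chosen with earlier results of these data known. Genes named in the text are the members, other alpha subunits, the highest, lowest and most abundant gene of each related list, and the neuronal markers with the longest and shortest transcripts; other list members were named after their values were seen, and marker lists of cell types are given as sums and counts. Some items that the rule names are not reported here. Depth limits what can be said of scarce genes.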

Additional observations from a re-analysis of the deposited data

How the results depend on the processing

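Under TMM scaling, the calls of Scn1a (log2 fold -2.35 to -1.48) and Cacna1d (0.87 to 1.89) held in all 22 alternatives; over all members, 188 of 220 alternative values kept direction and call. Members called higher were 1, and 2 with the block and with limma-voom, where Cacna1e was added; leaving out libraries or pairs gave 1 to 2 higher and 1 to 2 lower. The median log2 fold of the members, 0.25, was -0.58 with the length correction, -0.55 with the correction and the block and -0.47 with the correction by union of exons, and ranged from -0.05 to 0.44 with a library or pair left out. All genes called lower, 3869, numbered 2467 to 4192 with a library or pair left out. With the correction the sign turned for Cacna1a (-0.23; -0.22 with the block; -0.17 by union of exons), Cacna1b (-0.45, -0.43, -0.19), Cacna1c (-0.71, -0.66, -0.65), Cacna1e (-0.34, -0.24, -0.29), Cacna1g (-0.39, -0.38, -0.23), Cacna1h (-0.36, -0.38, -0.20) and Prox1 (-0.47, -0.47, -0.25). Without single libraries or pairs it turned for Scn8a (0.10 and 0.02, over a range of -0.42 to 0.10), Cacna1c (-0.09, -0.10 and -0.10, range -0.10 to 0.65), Itpr1 (0.14, range -0.57 to 0.14) and Cacna2d4 (0.09, 0.07, 0.14 and 0.61, range -4.18 to 0.61), all of them not called. The length correction lowers long genes by its construction; the cause of the other changes was not tested. Apart from Cacna1e, the replicate block changed no member's call.

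Scaled to neuronal markers, 10 members were higher, 7 to 10 over the alternatives. With excitatory markers as reference their median went from 3.12 to 1.66, Scn1a went to -0.25, and 7614 genes were higher and 815 lower, against 11998 and 218; 94 were lower with the block, and 52 to 354 with a library or pair left out. With the length correction the median was 2.15.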
